A study of Mus musculus with 9 samples.

Results

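The genes of DNA replication and nucleotide supply were followed in HL-1 cells, an immortalised mouse atrial cardiomyocyte line that divides in culture, after exposure to 2 inhibitors of nuclear import. The set was a list of 48 symbols covering origin recognition and licensing, the helicase, the polymerases, the sliding clamp and its loader, and the enzymes that supply deoxynucleotides. Its members were taken as the rows whose gene symbol equals a listed name. Of the 48, 46 were analysed, out of 25175 symbols in all, and Cdt1 and Gins2 were not analysed here. All 46 reached 1 FPKM in every library, so each was among the 11337 genes tested.

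The 9 poly(A) RNA libraries formed 3 groups of 3. Vehicle cells received 0.1% DMSO, another group received 5 µM ivermectin and the last 10 µM importazole, each for 24 h in Claycomb medium. Ivermectin, an antiparasitic drug, blocks import by the importin α/β pair, and importazole is a synthetic inhibitor of importin-β. The compounds were given at different doses, and the labels state no DMSO content for the compound groups. HL-1 descends from a tumour of a mouse that carried the large T antigen of a simian polyomavirus under an atrial promoter. This antigen binds the retinoblastoma proteins that otherwise hold E2F factors in check, which limits the line as a model of resting heart muscle. Nothing in the labels says that the libraries of a group came from separate cultures, so each p-value reflects the spread among these particular libraries, which could be technical.

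Replication begins where the origin recognition complex (ORC) marks DNA and, with CDC6 and CDT1, loads the ring of MCM proteins 2 to 7 that becomes the helicase. The kinase CDC7 with its activator DBF4, and cyclin E with its kinase, then recruit CDC45 and the GINS complex to start unwinding. Polymerase α and primase lay down primers, polymerases δ and ε extend them on the PCNA clamp that replication factor C loads, and FEN1 and DNA ligase 1 join the fragments. Many of these genes are textbook targets of E2F1 and its relatives, and their transcripts peak around the start of S phase.

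The values were FPKM, a read measure scaled to transcript length and to library size. Since FPKM hides the read numbers, depth is unknown. The sum of FPKM in a library ranged from 365300 to 416700. Libraries of the same group correlated with Pearson's r of 0.9841 to 0.9918, and those of different groups with r of 0.9797 to 0.9902, taken over genes, which are not independent replicates. Vehicle 2 and ivermectin 3 stood apart from the other libraries. A single abundant transcript, Yam1, was listed at 0 in both and made up 5.86% to 10.4% of summed FPKM elsewhere. Over all genes tested, their deviations from the group means correlated at r = 0.307, the highest among pairs of libraries from different groups. What these libraries share was not tested. Calls below are therefore also given without this pair. All 11 markers of the HL-1 line were above 1 FPKM on average, led by the atrial myosin light chain Myl7. Of the markers of other cell types, 1 of 8 for fibroblasts, 2 of 8 for endothelium and 1 of 6 for macrophages did so. Summed fibroblast markers were at 23.8 to 27.0 FPKM with vehicle, 37.1 to 39.1 with ivermectin and 34.8 to 37.2 with importazole. That sum was nearly all Ddr2, at 31.2 FPKM on average and at 23.7, 36.1 and 33.7 FPKM in the same order. The other fibroblast markers each averaged below 1 FPKM, so the sum describes a single gene. Of 6 smooth muscle markers 3 were above 1 FPKM, led by Acta2, and the sum was 1380 to 1440, 1190 to 1310 and 1200 to 1320 FPKM in the same order. Summed HL-1 markers were at 7700 to 8780 FPKM with vehicle, 6740 to 7240 with ivermectin and 7260 to 7820 with importazole, so vehicle and ivermectin did not overlap. The part of these shifts in the results was not tested. Cells in different phases of the cycle were pooled in each library, so fewer cells in S phase and less RNA per cell cannot be told apart.

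HL-1 cells expressed the replication genes at high levels. The median member stood at 25.7 FPKM, averaged over the 9 libraries, against 10.3 FPKM for the genes tested as a whole. The all-gene median was exceeded by 40 of 46 members (87.0%), and 10 were above the 90th percentile of genes tested. Pcna (130 FPKM), the small ribonucleotide reductase subunit Rrm2 (129 FPKM) and Rpa1 (102 FPKM), the largest subunit of the single-strand binding protein, averaged above 100 FPKM. At the other end, Gins3 averaged 3.64 FPKM and Orc1 3.81 FPKM. The next lowest were Orc4, Pole2 and Orc5, so that 5 members lay below 10 FPKM.

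Subunits that act in a single complex were not listed at equal levels. FPKM is scaled to length, so levels can be set side by side between genes, within the limits of the annotation used. In the MCM ring, Mcm2 was 3.09 to 3.70 times as high as Mcm4 in each library. Among the loader subunits, Rfc2 was 2.98 to 4.28 times as high as Rfc1. Orc2 was 3.34 to 5.87 times as high as Orc1. Gins4 exceeded Gins3 by 6.29 to 9.52 times, and Pold2, the second subunit of polymerase δ, exceeded the catalytic subunit Pold1 by 2.20 to 2.80 times. Rrm2, whose protein is limited to S phase in dividing cells, was 2.24 to 2.91 times as high as Rrm1.

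**Figure D1:**
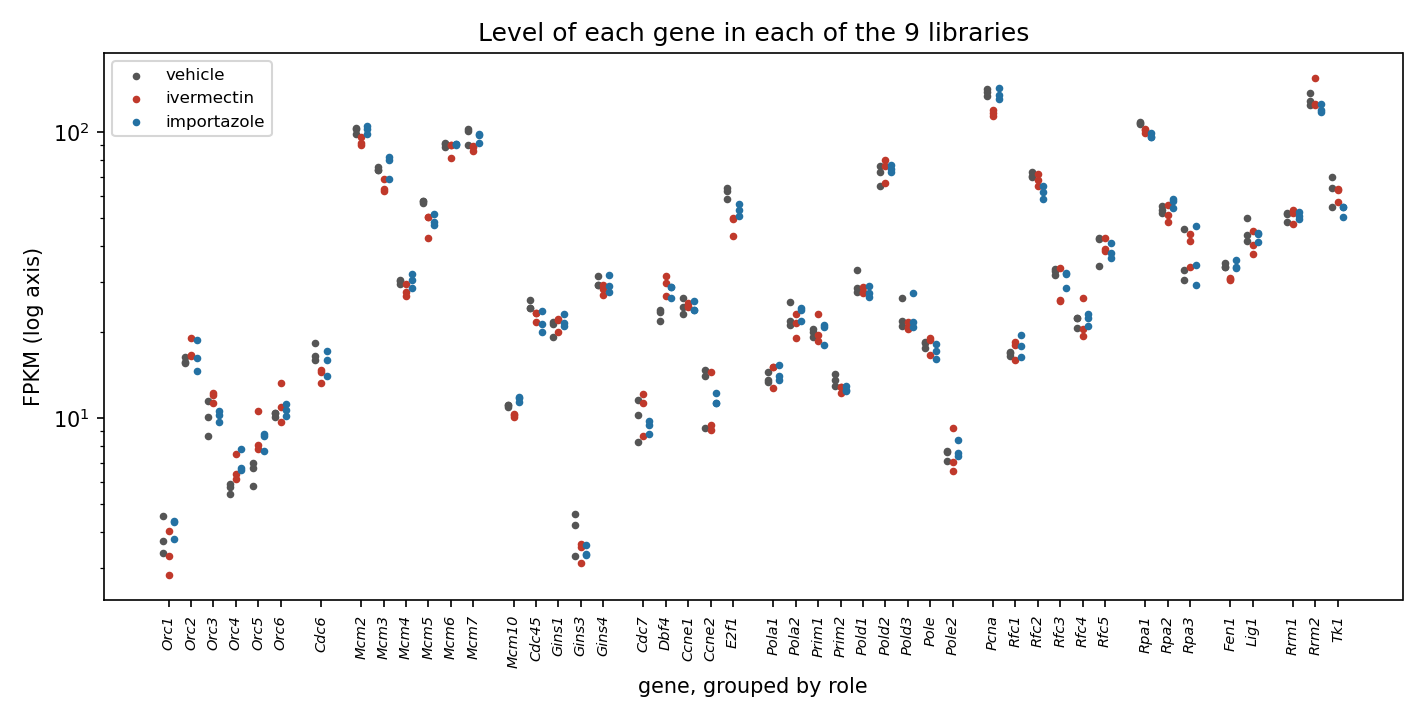
FPKM (log axis) of each of the 46 genes, grouped by role, in the 9 libraries; each point is a library, coloured by group. Levels ran from 2.82 FPKM for Orc1 in ivermectin 1 to 155 FPKM for Rrm2 in ivermectin 3, and the gap between genes was far wider than that between groups.

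The sequences before the gene starts were examined because these genes are known as E2F targets and E2f1 itself was among the members past the test. RefSeq promoters on GRCm38.p6 were matched by symbol for 39 of 46 members, and the 250 bases before the first listed start were searched on both strands. The words searched as E2F sites were TTTCCCGC, TTTCGCGC, TTTGCCGC and TTTGGCGC. At least 1 was present in 9 of 39 members (23.1%), against 389 of 16314 symbols (2.38%) with a promoter of the same length. Those symbols include genes too low to be tested here, whereas all members were expressed. Since the members are known E2F targets, a higher share among them is no new evidence. The CCAAT box, CCAAT, was present in 21 of 39 members (53.8%) and in 35.9% of all. A word known from genes that peak later in the cycle, TTTGAA, was present in 4 of 39 (10.3%) and in 14.0% of all. In 7 members an E2F word and a CCAAT box were both present, and in 0 of these did the words overlap. The start used lay more than 100 bases from the gene's outermost start in GENCODE M21 for 8 members, among them Mcm7 (539 bases inside the gene), E2f1 (466), Cdc6 (350), Pcna (134) and Gins3 (106). The Mcm7, Cdc6 and Gins3 stretches shown next therefore lie within the GENCODE gene, as does that of Rfc3 and part of that of Orc1.

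The stretches that hold an E2F word are shown to let the sites be compared across complexes. Each is 30 bases long, or 21 where the start was near, and is written 5′ to 3′ on the strand of the gene. Capitals mark the word, or its reverse complement where the word is on the other strand, and 2 overlapping words are marked as 1 run.
Orc1: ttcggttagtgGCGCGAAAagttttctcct
Orc3: ccatgcctcccTTTCCCGCacgccccgcct
Cdc6: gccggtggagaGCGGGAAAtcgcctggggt
Mcm5: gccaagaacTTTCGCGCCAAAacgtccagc
Mcm6, distal: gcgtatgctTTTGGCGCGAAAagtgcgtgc
Mcm6, proximal: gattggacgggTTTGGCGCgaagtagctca
Mcm7: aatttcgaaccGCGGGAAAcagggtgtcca
Gins3: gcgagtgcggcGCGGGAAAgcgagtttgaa
Pola1: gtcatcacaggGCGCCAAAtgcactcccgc
Rfc3: acgtcgcacgcTTTCGCGCtc
The Mcm5 stretch is at chr8:75109347-75109376 (plus strand), and its run begins 153 bases before the start. Both Mcm6 stretches are on the minus strand, at chr1:128359795-128359824 and chr1:128359734-128359763, with runs that begin 110 and 47 bases before the start. Mcm5 and the distal Mcm6 stretch hold words on both strands that overlap by several bases. A match is a description of letters and was not tested as a site. The 9 members with a word had a median log2 change of -0.15 with ivermectin and -0.03 with importazole, with 7 and 5 of 9 below 0. The 30 without had medians of 0.00 and 0.01, with 14 and 11 of 30 below 0. The members past the test, Dbf4, E2f1 and Pcna, were among those without a word in the bases searched. For E2f1, whose start used lay 466 bases inside the GENCODE gene, all 250 bases searched lay within the gene. Its bases before the outermost start were thus not searched. For Pcna (134 bases inside) part of the bases searched lay within the gene. Both are counted among the 30 without a word, with that limit. Mcm5, Mcm6 and Mcm7, with a word, belong to a single complex. Whether the words bear on the changes was not tested.

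The first comparison, of ivermectin with vehicle, asked which replication transcripts differ when import by importin α/β is inhibited. E2f1 and Pcna fell, Dbf4 rose, and the other 43 members did not pass the test. These 3 of 46 members (6.52%) compare with 4.31% of all genes tested, of which 1.79% were higher and 2.52% lower, a share near the background. Changes are on the log2(FPKM + 1) scale, and a gene was called where limma's Benjamini-Hochberg adjusted p over all 11337 genes was under 0.05. At an unadjusted p under 0.05 there were 11 members, 3 higher and 8 lower, against 20.7% of all genes (10.5% higher and 10.3% lower). The median member change was -0.06, against 0.01 for all genes.

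E2f1 encodes the transcription factor that switches on many other genes of the set (GRCm38 chromosome 2, 154559407 to 154569892, minus strand). It was at 62.4, 63.8 and 58.3 FPKM in vehicle 1, 2 and 3 and at 50.1, 49.7 and 43.4 FPKM in ivermectin 1, 2 and 3. The groups did not overlap, and ivermectin 3 was the lowest library. The log2 change was -0.36 (SE 0.0731, 95% interval -0.52 to -0.20, limma adjusted p = 0.0198). The call ended without vehicle 1, vehicle 2 or ivermectin 3 (limma adjusted p = 0.0672, 0.0836 and 0.0517), and without vehicle 2 and ivermectin 3 together (log2 change -0.27, limma adjusted p = 0.145). With no filter on low values it was 0.0651. With importazole E2f1 was at 53.5, 56.2 and 50.8 FPKM, between the other groups and overlapping neither, a log2 change of -0.20 that did not pass (limma adjusted p = 0.214).

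Pcna encodes the ring-shaped clamp that tethers polymerases to DNA (chromosome 2, 132249162 to 132253314, minus strand). Its vehicle libraries were at 134, 138 and 142 FPKM, and its ivermectin libraries at 114, 120 and 117 FPKM. Every ivermectin library was below every vehicle and importazole library. The log2 change was -0.24 (SE 0.0561, 95% interval -0.36 to -0.11, limma adjusted p = 0.0413). Leaving out any 1 of the 9 libraries ended the call, with limma adjusted p of 0.0543 to 0.122 and log2 changes of -0.26 to -0.22. The call also ended after quantile normalization (limma adjusted p = 0.0527), without vehicle 2 and ivermectin 3 together (0.167) and with no filter (0.0903). Processed copies of the gene may take or lend reads, which leaves its level uncertain, and the copy Pcna-ps2 was at 21.5 ± 0.978 FPKM with vehicle and 21.8 ± 2.61 FPKM with ivermectin (mean ± SD, n = 3).

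Dbf4 encodes the activating subunit of the CDC7 kinase (chromosome 5, 8396973 to 8422716, minus strand). It was at 23.5, 24.0 and 22.0 FPKM with vehicle and at 29.6, 26.8 and 31.4 FPKM with ivermectin. Importazole libraries, at 26.4, 28.7 and 28.8 FPKM, lay within the range of the ivermectin libraries apart from the first, just below it. Both compound groups were above vehicle without overlap. With ivermectin the log2 change was 0.32 (SE 0.0751, 95% interval 0.16 to 0.49, limma adjusted p = 0.0366). That call held without ivermectin 2 and ended without each of the other 8 libraries, with limma adjusted p of 0.0521 to 0.114. Without vehicle 2 and ivermectin 3 together it was 0.154, and with no filter 0.0996. The kinase subunit itself, Cdc7, was at 10.3, 8.26 and 11.6 FPKM with vehicle and 12.2, 8.64 and 11.3 FPKM with ivermectin, with overlapping groups.

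**Figure D2:**
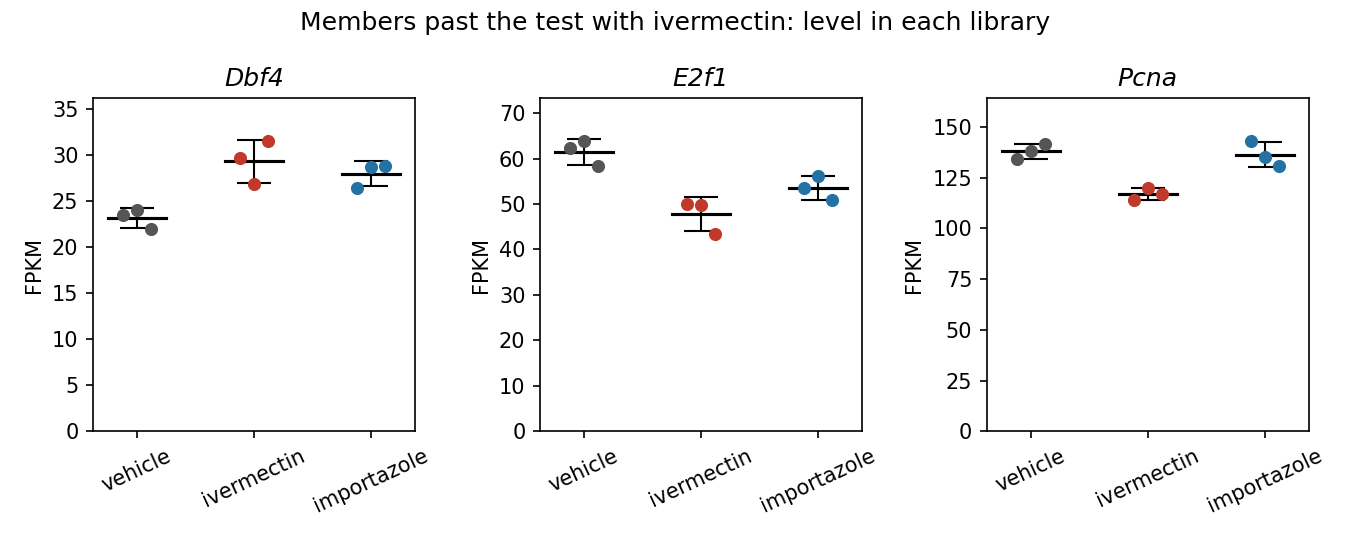
FPKM of Dbf4, E2f1 and Pcna in the 9 libraries; points are libraries, the wide bar is the group mean and the whisker is 1 SD (n = 3). Ivermectin libraries of E2f1 (43.4 to 50.1) and Pcna (114 to 120) lay below all vehicle libraries, and those of Dbf4 (26.8 to 31.4) lay above.

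Origin recognition genes did not pass the test with ivermectin, and 5 of 6 had positive log2 changes, from 0.11 for Orc6 to 0.39 for Orc5. Orc5 was at 6.997, 5.77 and 6.68 FPKM with vehicle and 7.82, 8.08 and 10.6 FPKM with ivermectin (95% interval 0.13 to 0.64, limma adjusted p = 0.0948). The highest Orc5 value was that of ivermectin 3. Orc2, the most abundant ORC transcript, was at 16.4, 15.6 and 15.7 FPKM with vehicle and 16.6, 16.7 and 19.0 FPKM with ivermectin. Orc1 was the member with a negative change, -0.15, and its groups overlapped. Across the 20 alternatives run, 5 of 6 ORC genes stayed positive with ivermectin. Several of these alternatives, such as another threshold, filter or moderation or the loss of an importazole library, cannot alter a gene's change with ivermectin. Cdc6, the loader of the MCM ring, was at 18.4, 16.5 and 16.01 FPKM with vehicle and 13.3, 14.7 and 14.5 FPKM with ivermectin, without overlap. Its log2 change of -0.24 did not pass (95% interval -0.44 to -0.05, limma adjusted p = 0.152).

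All 6 genes of the MCM ring had negative log2 changes with ivermectin, from -0.26 to -0.05, and 0 passed limma's test, with 4 lower at an unadjusted p under 0.05 (10.3% of all genes). The 6 signs were the same under each of the 20 alternatives, quantile and median-of-ratios scaling included. As said for the ORC genes, several of these alternatives cannot alter a change. In 5 of the 6, all but Mcm6, every ivermectin library was below every vehicle library. For Mcm4 and Mcm7 the gap was very small. Mcm4 was at 29.4 FPKM, as rounded, in both vehicle 2 and ivermectin 2. Mcm7 was at 90.2 FPKM in vehicle 3 and 89.8 FPKM in ivermectin 3. Mcm5 was at 57.6, 57.3 and 56.8 FPKM with vehicle and 50.4, 50.7 and 42.6 FPKM with ivermectin (log2 change -0.26, 95% interval -0.42 to -0.09, limma adjusted p = 0.0883). Ivermectin 3 was again the lowest library. Mcm2, the most abundant ring subunit, was at 103, 102 and 98.2 FPKM with vehicle and at 90.5, 96.0 and 91.5 FPKM with ivermectin, a change of -0.13. Mcm6 was at 91.2, 88.7 and 91.7 FPKM against 81.5, 90.1 and 90.1 FPKM, and its groups overlapped. In the whole set, members whose libraries did not overlap numbered 13 lower and 4 higher with ivermectin. As shares these were 28.3% and 8.70%, against 12.2% and 12.4% of all genes tested.

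The factors that convert the loaded ring into a moving helicase did not pass, with changes of -0.18 to 0.05 for the 5 genes tested. Mcm10, a scaffold of helicase activation, was at 11.0, 11.1 and 11.2 FPKM with vehicle and 10.4, 10.2 and 10.1 FPKM with ivermectin, without overlap. Gins4 was at 31.5, 29.3 and 29.2 FPKM against 26.9, 29.2 and 28.4 FPKM, and Gins3 at 4.22, 3.31 and 4.64 FPKM against 3.64, 3.11 and 3.56 FPKM. Both pairs of groups overlapped. Cyclin E1, which drives entry into S phase, was nearly level, at 26.4, 24.6 and 23.1 FPKM with vehicle and 24.6, 24.5 and 25.3 FPKM with ivermectin. For Ccne1 the 95% interval of the log2 change was -0.14 to 0.16. Cyclin E2 split the libraries another way. Ccne2 was at 14.0, 9.27 and 14.7 FPKM with vehicle and 9.49, 9.08 and 14.6 FPKM with ivermectin, so that vehicle 2 was low and ivermectin 3 high in their groups. These are the libraries that list Yam1 at 0. Without them the Ccne2 change went from -0.19 to -0.58 and passed (limma adjusted p = 0.607 and 0.0129). They are also the libraries of Ccne2 furthest from the rest of their groups. Their removal had to enlarge the change, so this pass is no support for a change.

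None of the polymerase and primase genes passed limma's test with ivermectin, and 0 of the 9 had an unadjusted p under 0.05 (20.7% of all genes), with changes from -0.12 to 0.05. All 9 intervals lay within 0.5 log2 units of 0. Pold2 was at 72.6, 76.4 and 64.8 FPKM with vehicle and 76.1, 79.7 and 66.2 FPKM with ivermectin. Pold3, an accessory subunit of polymerase δ, had the largest change of the 9, from 26.3, 21.8 and 21.0 FPKM to 20.6, 21.8 and 20.8 FPKM, with overlap. Of the loader subunits, Rfc3 was at 33.2, 32.8 and 31.8 FPKM with vehicle and 25.7, 25.9 and 33.5 FPKM with ivermectin. The high ivermectin library of Rfc3 was ivermectin 3, without which its change went from -0.21 to -0.33 and passed (limma adjusted p = 0.264 and 0.0443). For Rfc3 that library was far from the other ivermectin libraries and near vehicle. Its removal had to enlarge the change, so this pass is no support for a change. Fen1, the flap nuclease, was at 33.8, 33.9 and 34.8 FPKM against 30.4, 30.9 and 30.6 FPKM, without overlap (log2 change -0.15, limma adjusted p = 0.160). Ligase 1, Lig1, was at 50.0, 43.8 and 41.6 FPKM against 37.5, 40.3 and 45.1 FPKM, with overlap. Rpa1 was at 108, 107 and 109 FPKM against 102, 99.5 and 103 FPKM, without overlap. The small subunit Rpa3 was at 45.95, 32.9 and 30.5 FPKM with vehicle, 33.9, 41.6 and 44.0 FPKM with ivermectin and 29.3, 34.5 and 46.9 FPKM with importazole, and all groups overlapped.

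Nucleotide supply genes did not pass with ivermectin. Rrm2 was at 137, 125 and 129 FPKM with vehicle and 125, 126 and 155 FPKM with ivermectin, the last value again that of ivermectin 3. Rrm1 had a log2 change of 0.01 (95% interval -0.13 to 0.14). Thymidine kinase, Tk1, which salvages thymidine, was at 69.6, 63.7 and 54.95 FPKM against 63.4, 56.9 and 62.7 FPKM. Over the whole set, the 95% interval lay within 0.5 log2 units of 0 for 42 of 46 members, against 79.7% of all genes tested. The lowest bound was -0.59 for Ccne2 and the highest 0.64 for Orc5. In each comparison the intervals of members were narrower, with a median width of 0.36 log2 units against 0.44 for all genes. The shares within 0.5 log2 units given here and below therefore also depend on interval width. Negative changes numbered 27 of 46, against 5291 of 11337 for all genes. They numbered 33 without ivermectin 3 and 38 without vehicle 2 and ivermectin 3, and the median change of all genes then went from 0.01 to -8.08e-05 and -0.0148.

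**Figure D3:**
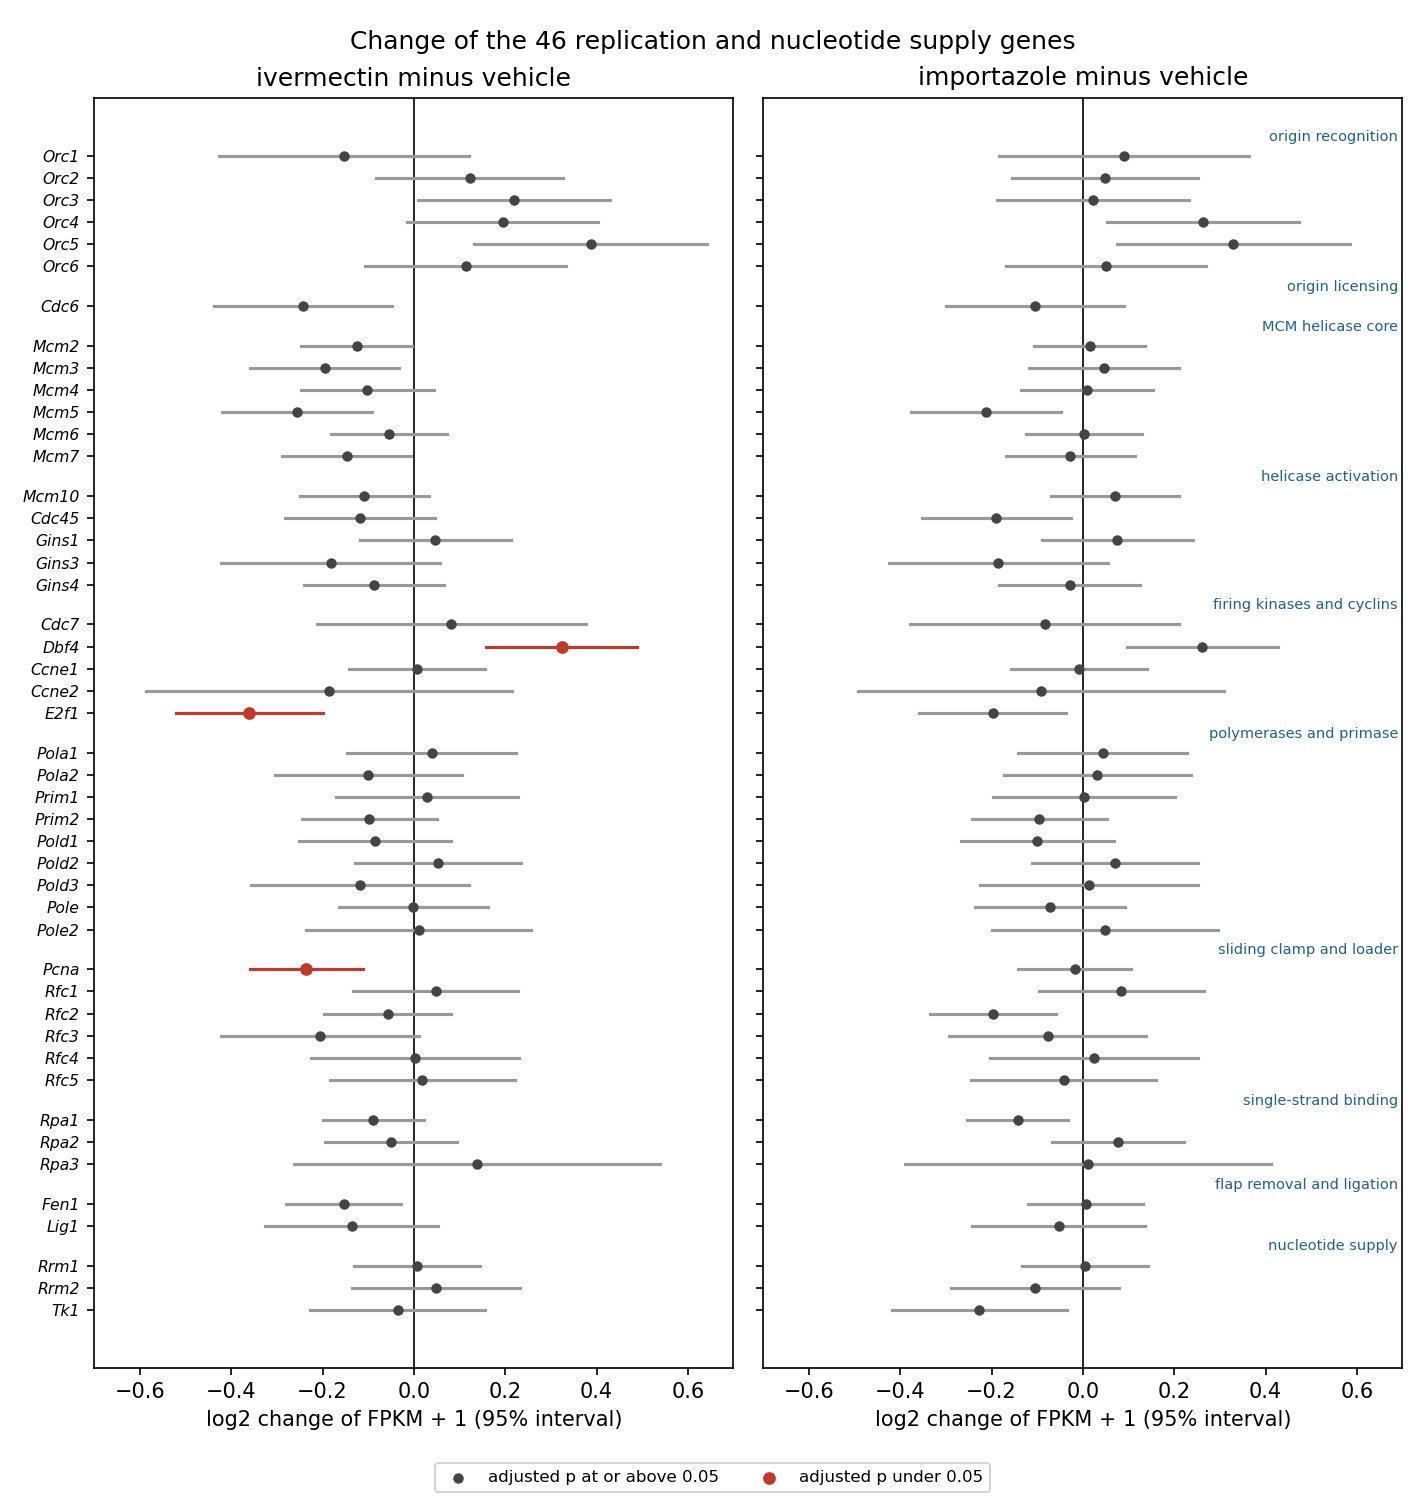
Log2 change of FPKM + 1 with its 95% interval for the 46 genes, by role, for ivermectin (left) and importazole (right) against vehicle; red marks a limma adjusted p under 0.05. The MCM genes lie left of 0 with ivermectin, from -0.26 to -0.05, while 3 genes are red on the left and 0 on the right.

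Importazole was compared with vehicle in the same way. By limma 0 of 46 members passed, against 2.26% of all genes tested (1.69% higher and 0.565% lower). At an unadjusted p under 0.05 there were 9 members, 6 lower and 3 higher, against 15.8% of all genes (4.48% lower and 11.3% higher). The split of all calls, 192 higher and 64 lower, was 159 and 117 under quantile normalization and 159 and 118 under median-of-ratios scaling. The median member change was 0.00, and it was 0.04 for all genes. In 45 of 46 members the 95% interval lay within 0.5 log2 units of 0, against 83.1% of all genes. Orc5 was the exception, at 8.67, 7.69 and 8.84 FPKM, above its vehicle libraries without overlap (log2 change 0.33, 95% interval 0.07 to 0.59, limma adjusted p = 0.189). Its neighbour in the complex, Orc4, was at 6.60, 7.81 and 6.69 FPKM against 5.74, 5.88 and 5.43 FPKM with vehicle (log2 change 0.26), again without overlap. Members without overlap numbered 4 higher (8.70%) and 6 lower (13.0%), against 16.5% and 7.07% of all genes.

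The 4 higher were Orc4, Orc5, Dbf4 and Mcm10, and the 6 lower were Mcm5, Cdc45, E2f1, Rfc2, Rpa1 and Tk1. Dbf4 had the smallest adjusted p, with a log2 change of 0.26 (95% interval 0.10 to 0.43, limma adjusted p = 0.112). Tk1 had the lowest change of the set, -0.23, at 54.8, 54.6 and 50.4 FPKM against 69.6, 63.7 and 54.95 FPKM with vehicle. Its highest importazole library was just below its lowest vehicle library. Mcm5 was at 48.6, 51.9 and 47.5 FPKM, a change of -0.21 (limma adjusted p = 0.189). Rfc2, a loader subunit, was at 62.0, 64.9 and 58.3 FPKM against 69.6, 70.2 and 72.7 FPKM (log2 change -0.20). Cdc45, a helicase cofactor, was at 21.3, 23.7 and 20.03 FPKM against 24.3, 24.2 and 25.96 FPKM (-0.19). Rpa1 was at 96.4, 99.6 and 96.4 FPKM (-0.14). Pold1 had the largest change among the polymerase genes, -0.10, with overlapping groups at 27.4, 28.9 and 26.6 FPKM against 33.0, 28.5 and 27.7 FPKM.

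The other MCM genes were within 0.05 log2 units of vehicle with importazole. Of the 6 signs in the ring 2 were negative, and this count depended on scaling, being 5 with quantile normalization and 6 when scaled by median of ratios. All 6 ORC changes were positive, 4 with quantile normalization and 5 when scaled by median of ratios. Pcna stayed level, at 143, 135 and 131 FPKM (log2 change -0.02, 95% interval -0.14 to 0.11). Rrm2 was at 118, 120 and 125 FPKM, and its groups overlapped.

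**Figure D4:**
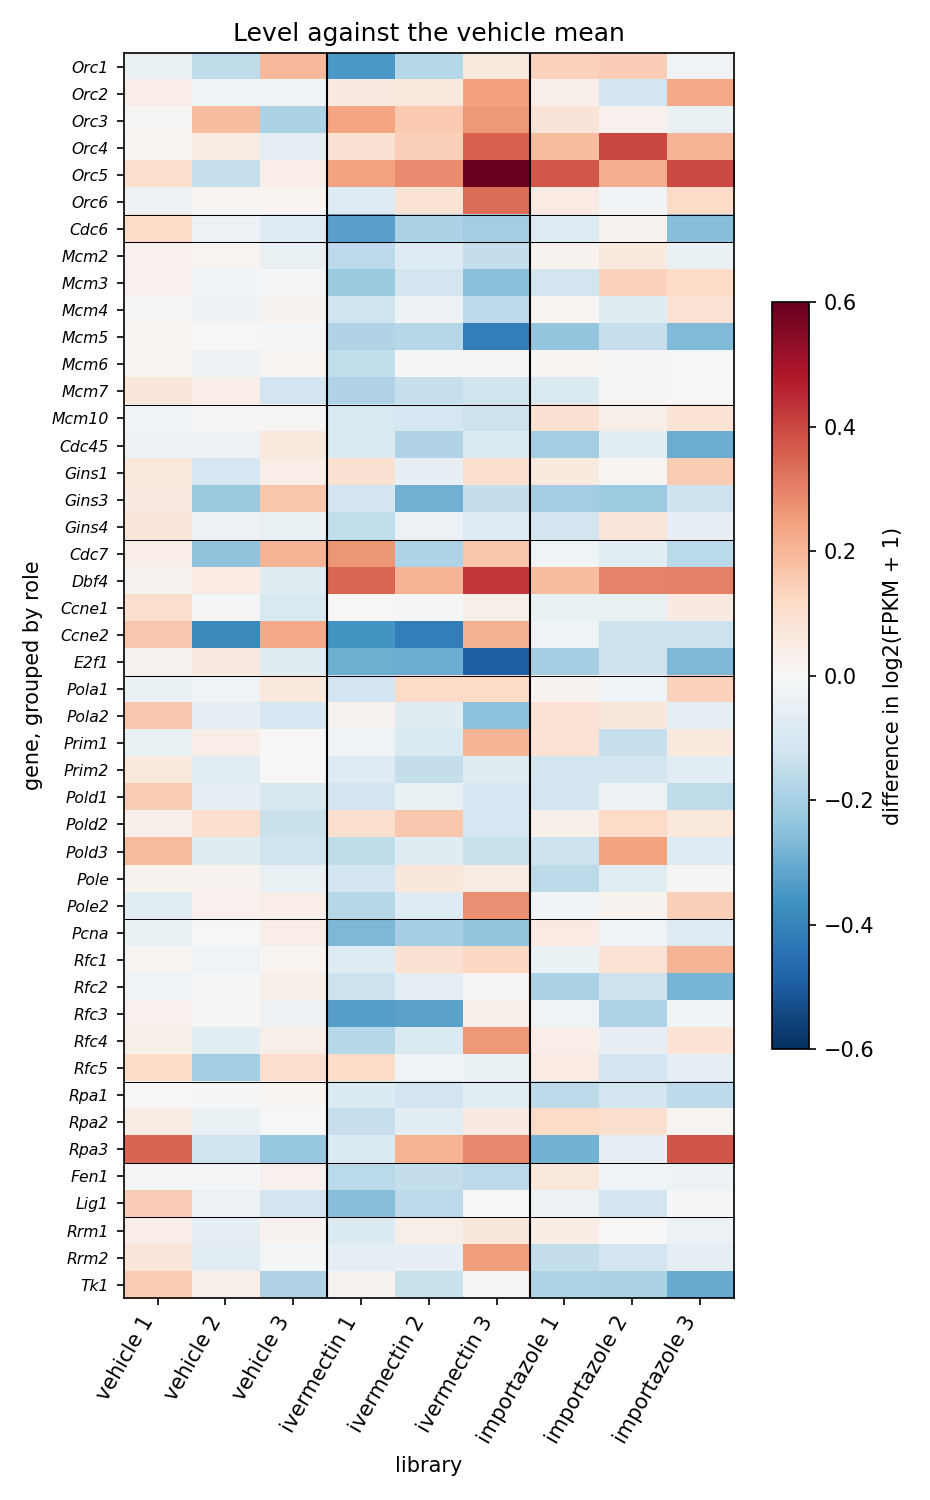
Difference of each gene's log2(FPKM + 1) from its vehicle mean (colour scale) in the 9 libraries, with genes in rows by role and vertical lines between groups. Red in the Orc5 and Dbf4 rows and blue in the E2f1 row run through both compound groups, the Pcna row is blue in the ivermectin libraries (114 to 120 FPKM), and in the Ccne2 row vehicle 2 is low and ivermectin 3 is not.

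The compounds were then set against each other directly, at their different doses. By limma 0 of 46 members differed, against 3.42% of all genes tested (0.714% higher and 2.71% lower with ivermectin). At an unadjusted p under 0.05 there were 8 members, 6 lower and 2 higher, against 19.0% of all genes (12.8% lower and 6.13% higher). The split of all calls, 81 higher and 307 lower, was 191 and 274 under quantile normalization. Pcna came closest, at 117 ± 2.99 FPKM (mean ± SD, n = 3) in ivermectin cells and 136 ± 6.10 FPKM in importazole cells. Its log2 difference was -0.22 (95% interval -0.34 to -0.09, limma adjusted p = 0.0627). The Pcna change in one comparison with vehicle and not in the other is thus not shown to differ between compounds at this threshold. Mcm3 was at 63.6, 68.7 and 62.2 FPKM in ivermectin cells and 68.8, 82.0 and 80.2 FPKM in importazole cells, a difference of -0.24 (limma adjusted p = 0.109) that passed without importazole 1 (-0.32, limma adjusted p = 0.0491). For Mcm3, importazole 1 was the importazole library nearest to the ivermectin cells. Its removal had to enlarge the difference, so that pass is no support for a difference. All 6 MCM differences were negative, from -0.24 to -0.04, and 4 of 6 after quantile normalization. For E2f1 the difference was -0.16 (limma adjusted p = 0.259), for Dbf4 0.06 (0.722) and for Tk1 0.19 (0.263). In 44 of 46 members the interval of the difference lay within 0.5 log2 units of 0, against 81.0% of all genes. Libraries without overlap numbered 7 lower and 2 higher (15.2% and 4.35%), against 16.1% and 8.04% of all genes. Both comparisons with vehicle share the same 3 vehicle libraries, so their values are given side by side and were not correlated.

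Other genes of the pathway were counted in fixed lists. Of 30 further nucleotide synthesis genes 1 rose with ivermectin and 1 with importazole, and 0 fell. These calls were near the shares of all genes that rose (1.79% and 1.69%), and the median changes were 0.04 and 0.01. At an unadjusted p under 0.05, 6 were higher and 0 lower with ivermectin, against 10.5% and 10.3% of all genes. With importazole 6 were higher and 2 lower, against 11.3% and 4.48%. Adsl, an enzyme of purine synthesis, went from 64.2, 63.5 and 61.3 FPKM to 72.1, 79.6 and 81.3 FPKM with ivermectin (log2 change 0.30, limma adjusted p = 0.0228). That call ended without any 1 of vehicle 1, 2 or 3 or ivermectin 2 or 3, with limma adjusted p of 0.0576 to 0.0772, and without vehicle 2 and ivermectin 3 together (0.141). Cad, which opens pyrimidine synthesis, went from 38.1, 38.9 and 36.7 FPKM to 53.5, 51.2 and 46.5 FPKM with importazole (0.40, limma adjusted p = 0.0251). The Cad call ended without any 1 of vehicle 1, 2 or 3 or importazole 1 or 2 (limma adjusted p of 0.0649 to 0.117) and after median-of-ratios scaling (0.0526), and held without vehicle 2 and ivermectin 3 together (0.0360). In neither case did the groups overlap. Of the 20 alternatives run, 9 ended the Adsl call and 8 the Cad call, the stricter threshold included.

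Of 13 tested cyclins, kinases and inhibitors of G1 and S phase, 2 fell with ivermectin, against 2.52% of all genes, and 11 did not pass. At an unadjusted p under 0.05 there were 1 higher and 4 lower, against 20.7% of all genes in either direction. With importazole 0 passed by limma, and 3 had an unadjusted p under 0.05 (15.8% of all genes). Ccna2, the S phase cyclin A, was at 63.7, 66.9 and 65.8 FPKM with vehicle, 53.9, 55.4 and 56.7 FPKM after ivermectin and 62.8, 62.4 and 63.2 FPKM after importazole. Its change with ivermectin was -0.24 (limma adjusted p = 0.0311), a call that held without ivermectin 3 and ended without each of the other 8 libraries (0.0519 to 0.117), and without vehicle 2 and ivermectin 3 together (0.130). Reads of Ccna2 are uncertain because its exons overlap Exosc9 on the opposite strand. Cdkn2d, which encodes an inhibitor of the cyclin D kinases, went from 97.2, 96.2 and 91.9 FPKM to 77.0, 73.0 and 76.0 FPKM with ivermectin (-0.33, limma adjusted p = 0.0210). That call ended without vehicle 1, vehicle 2 or ivermectin 2 (0.0718, 0.0805 and 0.0721), and without vehicle 2 and ivermectin 3 together (0.129). Of the 20 alternatives run, 14 ended the Ccna2 call and 6 the Cdkn2d call, the stricter threshold included.

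Among 19 E2F and retinoblastoma regulators, 0 passed limma's test with either compound (3 with ivermectin and 1 with importazole at an unadjusted p under 0.05, against 20.7% and 15.8% of all genes). Their medians were -0.03 and -0.03. Tfdp2, a partner of E2F proteins, had the smallest adjusted p with ivermectin, at 11.5, 11.2 and 12.4 FPKM with vehicle and 14.1, 14.3 and 14.9 FPKM with ivermectin (0.28, limma adjusted p = 0.0783). E2f7, a repressor of E2F targets, had a change of -0.31 (0.123). Of 28 further fork and origin factors 0 passed with either compound, with 0 and 2 at an unadjusted p under 0.05, against the same 20.7% and 15.8%, and medians of 0.02 and 0.05.

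In all, 10 members have exons that overlap another gene on the opposite strand, and whether strand was used in counting is not stated here. Values of Orc2, Orc4, Orc6, Mcm7, Ccne2, Rfc2, Rfc4, Rfc5, Fen1 and Tk1 are uncertain to that extent.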

How the data were processed

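Per the file headers, each deposited file holds a gene symbol and an FPKM value made by the authors. Cufflinks, STAR, Bowtie and Bowtie2 appear in the submitters' processing notes with no version or role, as do mm10 and GRCm38. Annotation, filters and strand use: not given in the sources used here.

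Groups and replicate numbers came from the labels. The 25230 lines per file held 25175 symbols, and values of 48 repeated symbols were summed (0 were members). The 11337 genes that reached 1 FPKM in 3 or more libraries were tested as log2(FPKM + 1). The linear model, in limma 3.58.1 (R 4.3.3), used all 9 libraries and no covariate beside group, with trended and robust moderation. P-values are two-sided and were adjusted over all genes tested. The procedure was tested on simulated data with noise drawn independently for each library. Libraries that deviate together, as vehicle 2 and ivermectin 3 did, were not simulated. How often changes as small as those of the members are found is not given here. Same-numbered libraries did not deviate together (1 of 9 correlations above 0.1), so numbers were not treated as pairs. Members and lists were chosen with earlier results of these data known.

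Values in every library are given for members past the test. For the most abundant member and the members with the largest change in each role, they are given for vehicle and for either or both compounds. From each list, up to 4 genes of smallest p were eligible. Mcm3, Mcm6, Mcm10, Rfc3, Ccne1, Ccne2, Cdc7, Orc4 and Rrm1 were added after their values were seen. Locations are from GENCODE M21 (GRCm38). Alternatives were pseudocounts, filters, scalings, a replicate block, fewer libraries, moderation and threshold. Figures used Python 3.11.15 and matplotlib 3.10.9.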

Additional observations from a re-analysis of the deposited data

How the results depend on the processing

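With ivermectin 3 members passed, and 0 with no filter, with the 6 libraries compared or at an adjusted p under 0.01. There was 1 with the replicate block, 1 with no trend and no robust moderation and 1 (Ccne2) without the pair of libraries lacking Yam1, and 0 to 2 without 1 library. Importazole kept 0 under all 20 alternatives, and the direct comparison 0 to 1 without 1 library. The 3 called members kept their sign under all 20 alternatives, several of which cannot alter a change with ivermectin. Their log2 changes were -0.40 to -0.27 for E2f1, -0.26 to -0.22 for Pcna and 0.27 to 0.39 for Dbf4. Same-numbered libraries correlated at -0.21 to 0.145 in their deviations, and not every library correlated best with its own number, so the pairing was not used; with the replicate block the adjusted p was 0.0864 for Pcna, 0.0763 for Dbf4 and 0.0619 for Ccna2, while E2f1, Adsl, Cdkn2d and Cad kept their calls (0.0144, 0.0477, 0.0366 and 0.0199). The count of all genes called, 489, 256 and 388 for ivermectin, importazole and the direct comparison, was 211, 133 and 177 with no filter, 173, 108 and 150 at an adjusted p under 0.01, and 195, 161 and 233 without that pair. It was 274 for ivermectin with 6 libraries and 257 for the direct comparison with the replicate block. Without 1 library it was 243 to 399, 128 to 320 and 177 to 396. The libraries whose removal moved it by over 1.5 times were vehicle 1 and 2 and ivermectin 1 and 3 for ivermectin (263, 243, 306 and 315), vehicle 2 and 3 and importazole 1, 2 and 3 for importazole (134, 142, 128, 134 and 154), and ivermectin 1 and 2 and importazole 1, 2 and 3 for the direct comparison (216, 244, 213, 177 and 227). The median member change with importazole was -0.04 after quantile normalization (-0.0443) and median-of-ratios scaling (-0.0423), and 0.02 in the direct comparison after quantile normalization (0.0222), from 0.00 and -0.03. The cause of these shifts was not tested. Depth is unknown.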

Other observations

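Genes that act beside or after replication were also counted. Of 12 genes of chromatin assembly at the fork 0 passed limma's test with ivermectin or importazole, with 4 and 0 at an unadjusted p under 0.05 (20.7% and 15.8% of all genes tested) and median log2 changes of 0.00 and 0.08. Hells, a chromatin remodeller, had the smallest adjusted p with ivermectin (log2 change 0.23, limma adjusted p = 0.156), and Dnmt1, which copies DNA methylation after replication, had a change of -0.17 (0.180). Of 18 genes of replication stress and repair 0 passed with either compound (2 and 0 at an unadjusted p under 0.05, against the same shares), with medians of 0.09 and 0.07. Brca2, a repair gene, had a change of 0.23 with ivermectin (limma adjusted p = 0.178).

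Of 19 markers of G2 and M phase 0 passed with either compound (1 and 0 at an unadjusted p under 0.05, against the same shares), with medians of 0.01 and 0.02. The mitotic kinase Plk1 was at 61.3, 55.4 and 51.0 FPKM with vehicle, 45.0, 50.5 and 41.0 FPKM with ivermectin and 50.2, 54.5 and 45.0 FPKM with importazole (log2 changes -0.29 and -0.16, limma adjusted p = 0.125 and 0.463). Its ivermectin libraries lay below all vehicle libraries.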
